A study of Saccharomyces cerevisiae with 3 samples.

Results

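The deletion strains described here lack genes of the yeast machinery that removes the cap of cytoplasmic mRNA and degrades the body of the message from its 5' end. A total of 10 genes, LSM1, LSM6, LSM7, PAT1, DHH1, XRN1, EDC1, EDC2, EDC3 and SCD6, were chosen by symbol, and all of them were found on the array. The choice was made with earlier results of these data known, so shares of calls set beside all strains are descriptive. The 10 genes had 50 of the 18794 probes that carry a gene name, and they made up 10 of 5325 named genes. All 150 of their values (50 probes on 3 arrays) were present, and none stood at the lowest or highest ratio in the deposited table.

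Each array set 2 pools of haploid yeast (Saccharomyces cerevisiae) deletion mutants against each other. A starting pool of 5896 heterozygous diploid knockouts, from which haploids could be selected, had received a cin8D::URA3 cassette, which removes CIN8, a kinesin motor of the mitotic spindle. After sporulation, minimal medium with 5-fluoroorotic acid (5-FOA), a compound that is toxic to cells with an active URA3 gene, gave single mutants that keep CIN8, and minimal medium without uracil gave double mutants that lack CIN8 as well. Both pools grew for 2 days at 30 °C, and experiments 1, 2 and 3 used 0.1, 0.15 and 0.2% 5-FOA. Every strain carries a pair of DNA tags, which were amplified from genomic DNA, labelled with Cy5 for single mutants and Cy3 for double mutants, and hybridised together. The pools differed in CIN8 and in the selective medium, and effects of these cannot be told apart. Whether the 3 experiments began from separate transformations is not stated, so p-values measure the spread between 3 arrays. That spread may be technical in part, and it includes any effect of the 5-FOA percentage.

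In yeast, a ring of Lsm1 to Lsm7 binds the shortened tail of deadenylated mRNA together with Pat1. This complex, the helicase Dhh1 and the Edc proteins help the Dcp1-Dcp2 enzyme to remove the cap, and the exonuclease Xrn1 then digests the RNA. Lsm1 belongs to the cytoplasmic ring alone, whereas Lsm2 to Lsm7 also form a nuclear ring with Lsm8 that binds U6 RNA and serves splicing. The genes for Lsm2, Lsm3, Lsm4, Lsm5 and Lsm8 are essential in yeast, and strains without LSM1, LSM6 or LSM7 can grow as haploids.

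Values are deposited log2 ratios from which the median of the array was subtracted within each tag set, then averaged over spots and tags of a strain. The 2 tags of a strain are called tag A and tag B, since it is not stated which is the upstream tag. Signs follow the deposited ratio, whose formula is not given in the sources used here. A reading as Cy5 over Cy3, in which a positive value means a larger share in the single-mutant pool and a smaller share among cells without CIN8, is likely from the dyes in the labels and from KIP1, whose loss together with CIN8 is known to be lethal. KIP1, the gene of the related kinesin, had a log2 ratio of 4.99 ± 0.50 (SD, n = 3 arrays). The strain of CIN8 itself stood at -2.23 ± 0.26. The cassette removes this same gene, and what the tags of the CIN8 strain represent in these pools was not tested. Without the formula the direction is not settled, and signs alone are used below. Strains were called at an adjusted p under 0.05 in limma, fitted over 5204 strains.

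The strains of the Lsm ring held the highest ratios of the 10 genes. LSM7, LSM1 and LSM6 were positive on every array with both tags, at 7.59-fold, 6.27-fold and 2.26-fold from the array median. The other 7 strains lay within 1.5-fold of the array median in their means. A total of 4 of the 10 strains were called positive (LSM7, LSM1, LSM6 and EDC3) and 2 negative (SCD6 and XRN1), and of all 5204 strains tested 16.2% were called positive, 17.4% negative and 33.6% in either direction. Tested alone, tag A was called in 4 of the 10 strains, against 34.6% of all strains with that tag, and tag B in 7 of the 10, against 33.2%. The tags agreed in a call for 4 of the 10 (LSM7, LSM1, LSM6 and SCD6), against 16.9% of the 4293 strains with both tags. The median of the 10 means was 0.31, against -0.10 over all strains tested. All these calls rest on the full set of 3 arrays. With any 1 of the 3 experiments left out, limma called 0 of the 10 and 0 of all strains at the adjusted threshold. An unadjusted p under 0.05 was found for 4 of the 10 and 1874 to 1993 of all strains. LSM1, LSM6 and LSM7 were among the 4 each time. The other was EDC3 without experiment 1, XRN1 without experiment 2 and SCD6 without experiment 3.

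**Figure D1:**
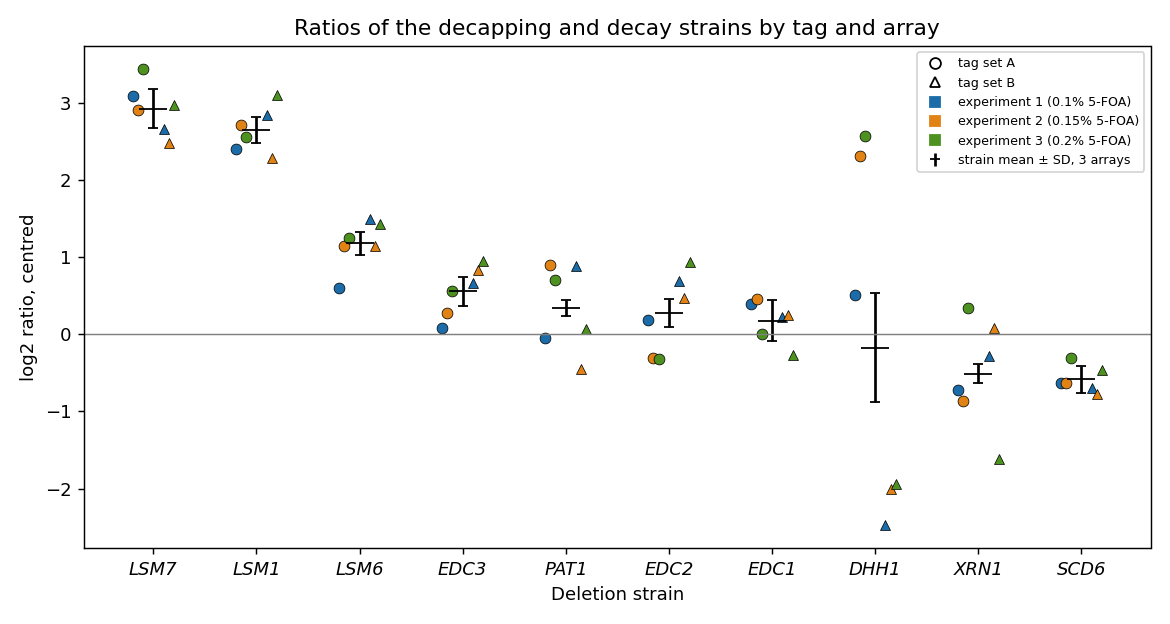
Centred log2 ratio (vertical axis) of each decay strain (horizontal axis, ordered by mean), with circles for tag A, triangles for tag B, colours for the 3 experiments, and bars for the strain mean ± SD over 3 arrays. The 6 values of LSM7 (2.48 to 3.44) and of LSM1 (2.28 to 3.10) lie above every value of LSM6 (0.60 to 1.49), and the tags of DHH1 lie on opposite sides of 0.

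LSM7 encodes a ring subunit that is shared by the cytoplasmic and nuclear complexes, on chromosome XIV (350940 to 351383, assembly R64). Its tag A gave log2 ratios of 3.08, 2.91 and 3.44 in experiments 1, 2 and 3, and its tag B gave 2.66, 2.48 and 2.97. Both tags were lowest in experiment 2 and highest in experiment 3, and tag A stood above tag B on each array by 0.44 ± 0.03 (SD, n = 3), which was not called (limma on the difference, adjusted p = 0.131). The strain mean was 2.92 ± 0.26 (n = 3; 95% interval 2.51 to 3.34; limma, adjusted p = 0.0090), and 99.4% of all strains tested lay below it. Each tag of LSM7 had 1 spot per array.

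LSM1 encodes the subunit that sets the cytoplasmic ring apart, on chromosome X (187126 to 187644). Its tag A gave 2.40, 2.71 and 2.55 in experiments 1, 2 and 3, and its tag B gave 2.85, 2.28 and 3.10. No array was highest or lowest with both tags. The strain mean was 2.65 ± 0.17 (n = 3; 95% interval 2.32 to 2.98; limma, adjusted p = 0.0086), at rank 42 of 5204 from the top, where LSM7 stood at rank 30. LSM1 had 6 spots per tag, whose SD within an array was 0.06 to 0.13, less than the SD between arrays for tag A (0.16) and tag B (0.42).

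LSM6, on chromosome IV (1229349 to 1229609), encodes another subunit shared by both rings. Its tag A gave 0.60, 1.15 and 1.25 in experiments 1, 2 and 3, and its tag B gave 1.49, 1.15 and 1.43. All 6 values were above 0, the lowest of them tag A in experiment 1. The mean was 1.18 ± 0.15 (n = 3; 95% interval 0.86 to 1.49; limma, adjusted p = 0.0138), at rank 235 of 5204 from the top. With the 5-FOA percentage as a covariate the adjusted p was 0.0507.

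The 3 ring strains were not equal in size. LSM1 exceeded LSM6 by 1.47 ± 0.12 (SD of the difference, n = 3 arrays), or 2.77-fold, and LSM7 exceeded LSM6 by 1.75 ± 0.17, or 3.36-fold, each on 3 of 3 arrays and with no overlap among the 6 values of each strain. LSM7 exceeded LSM1 by 0.28 ± 0.09 on 3 of 3 arrays, but their strain values and their tag values overlapped. These differences were not tested.

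PAT1 encodes the partner that binds the Lsm ring, and all 6 values of its strain lay below those of LSM1 and LSM7. Its tag A gave -0.05, 0.90 and 0.70 in experiments 1, 2 and 3, and its tag B gave 0.89, -0.45 and 0.06. The tags ran in opposite order over the arrays, so the strain means per array (0.42, 0.22 and 0.38) varied less than either tag. The mean of 0.34 ± 0.10 (n = 3; 95% interval 0.06 to 0.62) was not called (limma, adjusted p = 0.0716). It was called at an adjusted p of 0.0466 when the fit held only strains with both tags, and neither tag was called alone (adjusted p = 0.162 for tag A and 0.694 for tag B). LSM1 exceeded PAT1 by 2.31 ± 0.12 (n = 3) and LSM7 exceeded it by 2.58 ± 0.21, on 3 of 3 arrays each.

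DHH1 encodes an RNA helicase that promotes decapping and represses translation, and the tags of its strain gave opposite results. Tag A stood at 0.50, 2.32 and 2.57 in experiments 1, 2 and 3, and tag B at -2.48, -2.01 and -1.94. Tag A was positive and tag B negative on every array, and both were lowest in experiment 1. The difference, tag A minus tag B, was 3.94 ± 0.83 (n = 3; limma on the difference, adjusted p = 0.0288), and DHH1 alone of the 10 strains was called in this test, against 7.22% of 4293 strains. Only 1.26% of those strains had tags at least as far apart. Tag B alone was called negative (-2.14 ± 0.29; adjusted p = 0.0101) and tag A alone was not called (1.80 ± 1.13; adjusted p = 0.0635). The strain mean of -0.17 ± 0.71 lay in the gap between the values of the 2 tags. All 6 spots of each tag repeated the pattern, with tag A spots from 0.31 to 0.57 in experiment 1 and from 1.96 to 2.78 in experiments 2 and 3, and no tag B spot above -1.85. What sets the tags apart was not tested.

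**Figure D2:**
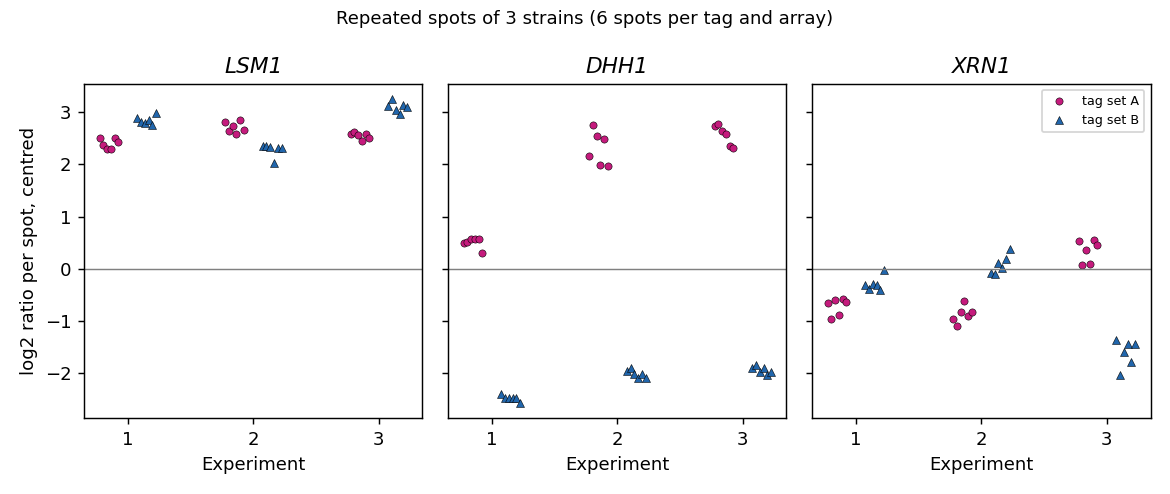
Centred log2 ratio of every spot (vertical axis) in experiments 1, 2 and 3 (horizontal axis) for LSM1, DHH1 and XRN1, with circles for tag A and triangles for tag B, 6 spots each. Spots of a tag lie close together on an array, while the 2 tags of DHH1 lie on opposite sides of 0 and those of XRN1 change places between experiments 2 and 3.

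XRN1 encodes the 5' to 3' exonuclease that degrades decapped mRNA. Its tag A gave -0.72, -0.87 and 0.34 in experiments 1, 2 and 3, and its tag B gave -0.29, 0.08 and -1.61. In experiment 3 tag A was at its highest and tag B at its lowest. The strain mean of -0.51 ± 0.12 (n = 3; 95% interval -0.80 to -0.22) was called negative (limma, adjusted p = 0.0372), but the SD of each tag was several times that of their mean, at 0.66 for tag A and 0.89 for tag B, and neither tag was called alone (adjusted p = 0.325 and 0.292). With the tag value nearer 0 on each array, the mean was 0.048, and with the 5-FOA covariate the adjusted p in limma was 0.0925. SDs among the 6 spots of a tag were 0.14 to 0.26, below the change of both tags between experiments 2 and 3.

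Strains of the decapping enhancers had small ratios. EDC3, the gene of a scaffold protein of cytoplasmic decay granules (P-bodies), gave 0.08, 0.28 and 0.56 with tag A and 0.66, 0.83 and 0.94 with tag B in experiments 1, 2 and 3. All 6 values were positive and both tags were highest in experiment 3. The mean of 0.56 ± 0.19 (n = 3; 95% interval 0.21 to 0.91; limma, adjusted p = 0.0432) was called. Of its tags in limma, tag B was called (0.81 ± 0.14; adjusted p = 0.0207) and tag A was not (0.30 ± 0.24; adjusted p = 0.166). Without centring, EDC3 stood at 0.39 with an adjusted p of 0.0826, and was not called. The call was also lost in limma with the 5-FOA covariate (adjusted p = 0.0743) and with the tag value nearer 0 (0.30; adjusted p = 0.211). EDC3 lies on chromosome V, 87.1 kb from CIN8, and EDC2 lies 183 kb from it on the same chromosome.

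EDC1 and EDC2 encode a pair of small related proteins that stimulate the decapping enzyme. EDC1 stood at 0.39, 0.45 and 0.00 with tag A and at 0.22, 0.25 and -0.26 with tag B, with both tags lowest in experiment 3. EDC2 stood at 0.18, -0.30 and -0.33 with tag A and at 0.68, 0.47 and 0.93 with tag B. Tag B of EDC2 was called alone (0.70 ± 0.23; limma, adjusted p = 0.0370) and tag A, at -0.15 ± 0.29, was not. Neither strain mean was called. The 95% interval was -0.25 to 0.60 for EDC1 (0.18 ± 0.27) and -0.07 to 0.61 for EDC2 (0.27 ± 0.18), and EDC1 minus EDC2 was -0.10 ± 0.35 (n = 3).

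SCD6 encodes a protein with an Lsm-like domain that binds the initiation factor eIF4G and represses translation. It gave -0.63, -0.63 and -0.31 with tag A and -0.69, -0.78 and -0.47 with tag B in experiments 1, 2 and 3. All 6 values were below 0, and both tags were nearest to 0 in experiment 3. The mean of -0.58 ± 0.17 (n = 3; 95% interval -0.92 to -0.25) was called negative (limma, adjusted p = 0.0369), as were tag A (adjusted p = 0.0480) and tag B (adjusted p = 0.0309). The call was lost with the 5-FOA percentage as a covariate (limma, adjusted p = 0.0799) and with the tag value nearer 0 (adjusted p = 0.0679). SCD6 was the lowest of the 10 strains, yet 27.7% of all strains tested lay below it.

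In the order of means, LSM7 and LSM1 came first, then LSM6, EDC3, PAT1, EDC2, EDC1, DHH1, XRN1 and SCD6. The steps from LSM1 to LSM6 and from LSM6 to EDC3 (0.62 ± 0.05, on 3 of 3 arrays) were the places where the strain values of neighbours did not overlap, although the tags of LSM6 and EDC3 did overlap. At all steps below EDC3, the upper strain was higher on 2 of 3 arrays and the values overlapped.

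**Figure D3:**
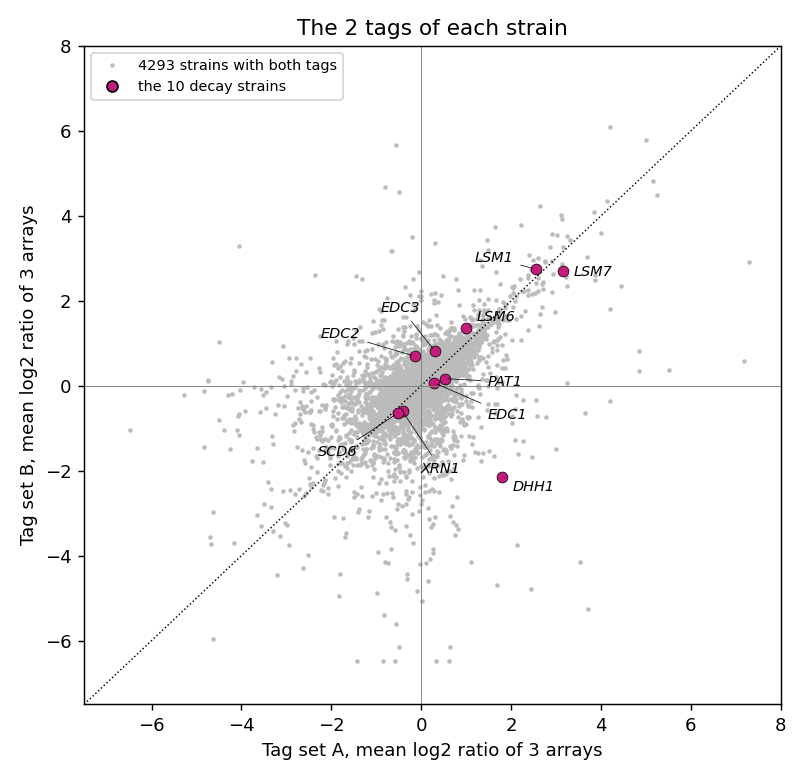
Mean log2 ratio over 3 arrays of tag A (horizontal axis) against tag B (vertical axis) for 4293 strains with both tags in grey and the 10 decay strains in colour, with a dotted line where both tags are equal. LSM1, LSM6 and LSM7 lie near the line on the positive side, and DHH1 lies far below it at 1.80 and -2.14.

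Strains of the wider mRNA decay pathway had means from -2.35 to 2.45, the highest of them PUB1. Of 51 genes on 7 lists, 49 were measured, and 7 were called positive and 11 negative. That is 36.7% of those tested, near the 33.6% of all strains, and the median was -0.17. No strain of the decapping enzyme and of the scavenger enzymes for released caps was called in limma (0 of 4). At an unadjusted p under 0.05 in limma, the count was also 0 of 4. DCP2, the catalytic subunit, stood at -0.75 ± 0.56 (n = 3; limma, adjusted p = 0.107). Tested alone in limma, its tag A was called negative (-1.10 ± 0.57; adjusted p = 0.0474) and its tag B was not called (-0.39 ± 0.55; adjusted p = 0.293). DCP1, its partner, stood at -0.30 ± 0.41 (limma, adjusted p = 0.303), without a tag A value in experiment 3. DCS1, of a scavenger enzyme, had no tag B value in experiment 2. Its tag B gave -3.31 in experiment 1 and 1.61 in experiment 3. What the tags of DCP1 and DCP2 represent in haploid pools was not tested.

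Among the other Lsm genes, LSM5 was called positive at 1.38 ± 0.17 (n = 3; limma, adjusted p = 0.0128), with 0.84 for tag A and 1.91 for tag B. The other 5 were not called. Of these, LSM8, which defines the nuclear ring, stood at -0.83 ± 0.64, and the ring subunits LSM2, LSM3 and LSM4 stood at -0.09 ± 1.03, -0.09 ± 0.81 and -0.12 ± 0.59. These 4 were named after their values were seen. LSM2 and LSM4 had 5 of 6 tag values. The mean of LSM2 lay between tags of opposite sign. Its tag A gave -1.705, -1.17 and -1.12 in experiments 1, 2 and 3 and was called alone (limma, adjusted p = 0.0165). Its tag B gave 3.48 in experiment 1 and 1.12 in experiment 3, with no value in experiment 2. All 5 of these ring genes (LSM2, LSM3, LSM4, LSM5 and LSM8) are essential, and what their tags represent in haploid pools was not tested.

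The deadenylation list, of genes for complexes that shorten the poly(A) tail before decapping, had 4 of 10 strains called positive and 0 negative. This share of 40% called was near the 33.6% of all strains, of which 16.2% were positive. The median of the list was 0.30, against -0.10 over all strains. PAN3 (0.84 ± 0.12) and PAN2 (0.54 ± 0.06) encode subunits of 1 deadenylase, and PAN3 alone on this list was called with both tags. NOT5, of the Ccr4-Not complex, was called at 0.64 ± 0.25, but its tags ran in opposite order over the arrays. Its tag A gave -0.25, 1.29 and 2.05 in experiments 1, 2 and 3, and its tag B gave 0.95, 0.16 and -0.39. Neither tag of NOT5 was called alone (limma, adjusted p = 0.187 for tag A and 0.566 for tag B). POP2, a deadenylase of that complex, was called at 0.93 ± 0.23, but its tags stood at 2.59 and -0.72.

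The nuclear exosome and exonuclease list had 5 of 9 strains called negative and 0 positive, or 55.6%, against 17.4% negative and 33.6% in either direction among all strains. Its median was -0.92. RAI1, the partner of the nuclear exonuclease Rat1, stood at -2.35 ± 0.60 and RAT1 itself, an essential gene, at -1.79 ± 0.46. RRP6, a nuclear exosome exonuclease, stood at -2.26 ± 0.25. These 3 were called with both tags. AIR1, of a complex that adds short tails to nuclear RNA, stood at -0.92 ± 0.29 with 5 of 6 tag values.

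The cytoplasmic exosome and nonsense-mediated decay lists each had 1 negative call and 0 positive, or 25% and 20% of their strains, against 33.6% of all strains. SKI8 (-0.68 ± 0.09), of the Ski complex that feeds the cytoplasmic exosome, was the 1 call among 4 strains of that list, with both tags. NMD4 (-0.83 ± 0.11), of nonsense-mediated decay, was the 1 call among 5, with tags at -1.67 and 0.02. Of 11 strains of P-body and mRNA binding proteins, 2 were called positive and 4 negative, against 16.2% and 17.4% of all strains. PUB1, which encodes a poly(A) and U-rich RNA binding protein, stood at 2.45 ± 0.98, with tags at 1.47 and 3.44. Its tag B gave 2.43, 2.09 and 5.79 in experiments 1, 2 and 3 and was not called alone (limma, adjusted p = 0.0592). PUF3 (-1.35 ± 0.09), a Pumilio protein for mRNAs of mitochondrial proteins, was called negative with both tags. VTS1, which binds RNA hairpins, stood at -1.33 ± 0.51, and SBP1, which binds single-stranded RNA, at -1.17 ± 0.53 with 5 of 6 tag values.

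**Figure D4:**
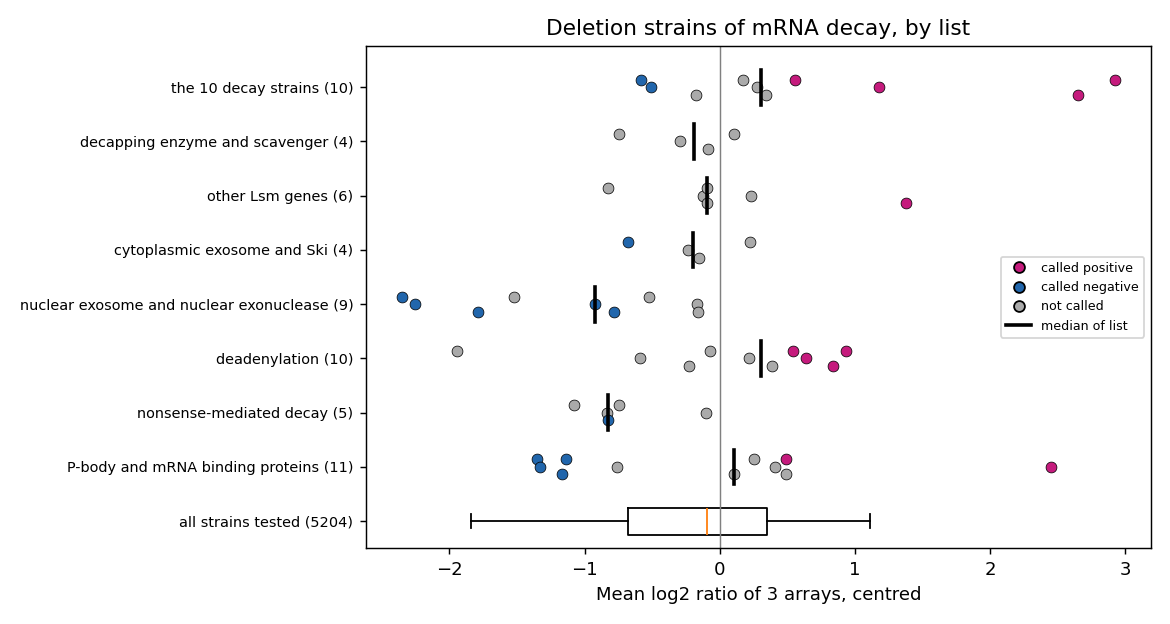
Mean log2 ratio over 3 arrays (horizontal axis) of each strain in the lists of mRNA decay genes (rows, with the number of strains), coloured by call, with list medians as black bars and all 5204 strains as a box (quartiles, orange median, whiskers at the 5th and 95th percentiles). LSM7, LSM1 and PUB1 are the points above 2, and the nuclear list lies on the negative side of 0 throughout.

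The strains most like each ring strain were found over the 6 centred values, by Euclidean distance among 4293 strains. LSM1 lay nearest to TOF2 (distance 0.87), a nucleolar protein gene, and SLK19 (0.87), a gene of the spindle midzone and kinetochore. LSM7 lay nearest to MAD1 (0.85), of the spindle checkpoint, and LTE1 (0.99), of mitotic exit. LSM6 lay nearest to CIN4 (0.52), of tubulin folding, and EAF5 (0.53), of the NuA4 acetyltransferase. EAF5 (121471 to 122310) lies on chromosome V, as CIN8 does (36535 to 39537), and any effect of that position was not tested. Strain means were 2.60 for TOF2, 2.85 for SLK19, 2.93 for MAD1, 2.54 for LTE1, 1.11 for CIN4 and 1.13 for EAF5. PAT1 lay nearest to TOM22 (distance 0.80; mean 0.45 ± 0.40, not called) and TDA11 (distance 0.80; mean 0.54 ± 0.08, called). Tag B of TOM22 gave 1.15, -0.69 and -0.12 in experiments 1, 2 and 3. What the tags of TOM22 represent in haploid pools was not tested. The distance between LSM1 and LSM7 was 1.18. These distances describe likeness of values on shared arrays and carry no test.

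Strains of adjacent genes were compared with the decay strains, because a deletion can also remove regulatory sequence of the gene beside it, which was not tested. Of 20 neighbours in the RefSeq table, 16 were measured, and 3 were called positive and 5 negative (50%, against 33.6% of all strains). ALF1, a tubulin folding gene 268 bp from LSM7, stood at -1.86 ± 0.41 (n = 3), on the side opposite to LSM7 with both tags. The neighbours of LSM1 were GCD14 (0.54 ± 0.45, not called) and MTC1 (-0.63 ± 0.23, called), and those of LSM6 were ATP17 (0.61 ± 0.09, called) and RGA2 (-0.10 ± 0.37, not called). PAT1 lay between FUB1 (3.01 ± 1.40, tags 2.22 and 3.79), 192 bp away, and PTC6 (-2.40 ± 0.23), 216 bp away, which were both called and had opposite signs. No neighbour of LSM1, LSM6 or LSM7 that was measured reached the ratio of the decay strain beside it. Whether each neighbour strain can grow as a haploid, and so what its tags represent in these pools, was not tested. For LSM7 this covers ALF1 alone, since YNL146C-A, 2 bp away on its other side, was not on the array.

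**Figure D5:**
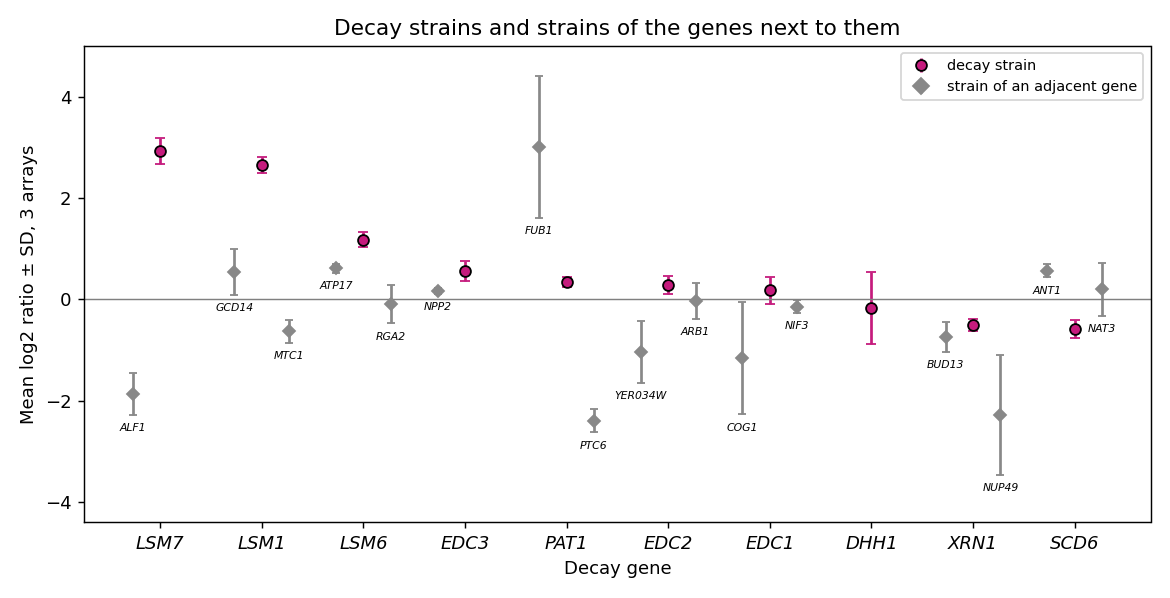
Mean log2 ratio ± SD over 3 arrays (vertical axis) of each decay strain (circles) and of measured strains of the genes on either side of it (diamonds, named), with decay genes on the horizontal axis. ALF1, beside LSM7, stands at -1.86 against 2.92 for LSM7, and FUB1 and PTC6 stand far to either side of PAT1.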

How the data were processed

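The labels' protocols state that images were read with GenePix 5.1. The authors deposited log2 ratios, 1 per probe and array. Formula, direction, normalization and filters are not given in the sources used here, and the columns had medians of -0.17, -0.15 and -0.15, so they were not centred on 0. Precision is limited by the number of arrays. Spot intensities were not used here, so signal over background is not known. A set of 36 values at a ratio of 999999 was treated as placeholders and left out, and 210 at the lowest ratio, 0.01, were kept.

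Probes were named by the platform annotation (18794 of 22575 had 1 symbol, 0 several and 3781 none), and 5321 of 5325 genes matched RefSeq R64. Every named probe had a partner of the same gene at a distance of 10971 identifiers, and the lower and higher identifiers were taken as tags A and B. The median of each tag set was subtracted on each array (-0.18 to -0.15), spots of a tag were averaged, and then the tags of a strain. Strains on all 3 arrays were tested against 0, two-sided, with limma 3.58.1 in R 4.3.3 (lmFit, eBayes, Benjamini-Hochberg over all strains), as were each tag set alone and the difference between tags. SDs and n are over arrays, and intervals are 95% intervals of limma's mean. The test was checked on simulated data. Python 3.11.15, pandas 2.3.3, numpy 2.4.6 and matplotlib 3.10.9 served for tables and plots.

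The members and lists were chosen with earlier results of these data known. Named strains were the 10 genes, KIP1 and CIN8, up to 4 called strains per list by size (where none was called, up to 2), the 2 strains nearest to LSM1, LSM6, LSM7 and PAT1, and genes beside a member. Alternatives changed the arrays, centring, scaling, tags, spots, lowest ratios, covariate and eBayes setting.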

Additional observations from a re-analysis of the deposited data

How the results depend on the processing

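Leaving out experiment 1, 2 or 3 gave 0 calls among the 10 strains, with both tags, between tags, in the lists and over all strains (0 to 0 each). Each of these fits held fewer arrays and a different set of 5-FOA percentages, and why the calls were lost was not tested. The adjusted p was then 0.0628 to 0.0787 for LSM1 and for LSM7 and 0.0739 to 0.0835 for LSM6, with means of 2.56 to 2.73, 2.78 to 3.04 and 1.09 to 1.24. With the 5-FOA percentage as a covariate, which takes 1 of 2 residual degrees of freedom, 2 of the 10 strains were called (LSM1 and LSM7; 2 positive, 0 negative), 2 with both tags, 0 between tags, 1 of the listed strains against 18, and 228 of all strains against 1748. The tag value nearer 0 gave 3 calls among the 10 (3 positive, 0 negative), 9 listed strains and 751 strains in all. Tag set A alone gave 1 negative call against 2. Signs changed for PAT1 (-0.15 with the value nearer 0), DHH1 (-0.42 to 0.23 with an experiment left out, 0.23 without experiment 1, and 1.80 with tag set A alone), XRN1 (0.048 with the value nearer 0) and EDC2 (-0.15 with tag set A alone and with the value nearer 0). The other counts stayed within 1.5 times, and over all alternatives LSM1 ranged from 2.41 to 2.74, LSM7 from 2.70 to 3.14 and LSM6 from 0.998 to 1.35. Both pools were on each array, so the ratio on an array already pairs them. No pairing beyond this was possible because the arrays form 1 group. The cause of these changes was not tested beyond what each setting leaves out.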
